A study of Mus musculus with 12 samples.

Results

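The proximal tubule amino acid transporters studied here are 9 genes, Slc6a19, Slc6a18, Slc7a9, Slc3a1, Slc1a1, Slc7a7, Slc7a8, Slc3a2 and Slc38a3, out of 18193 genes named on the array. Where several probe sets were assigned by the array's annotation to 1 of these symbols alone, the brightest on average across the 12 arrays stood for the gene. Of the 9 genes, 8 lay above 4 on the log2 scale on at least 3 of the 12 arrays and entered the tests, and Slc38a3 did not. RNA came from proximal tubules isolated by Percoll centrifugation from mice aged 20 weeks on a normal diet, with 3 arrays in each of 4 groups. Wild type mice carried neither factor. Catalase-Tg mice carried a catalase transgene, dB/dB mice the leptin receptor mutation that leads to obesity and diabetes, and dB/dB catalase-Tg mice carried both. The labels do not name the promoter of the transgene, and they do not say that the 3 samples of a group came from separate animals. The p-values therefore rest on sample-to-sample spread alone, and that spread may be technical.

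Free amino acids that pass the glomerular filter are taken back almost completely by the proximal tubule. Carriers in the brush border move them from the lumen into the cell, and a second set of carriers in the basolateral membrane lets them leave towards the blood. Several of these carriers work as pairs, in which a light chain forms the transport pathway and a heavy chain, joined to it by a disulfide bond, brings it to the membrane. Loss of SLC6A19 causes Hartnup disorder in humans, loss of SLC3A1 or SLC7A9 causes cystinuria, and loss of SLC7A7 causes lysinuric protein intolerance.

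Values are the deposited log2 expression per probe set, with a floor of 2.30, and differences are on the same log2 scale. Between 36.9% and 38.5% of probe sets lay above 4 on an array. All 14 proximal tubule markers were above 4 on all 12 arrays, and so were 8 of 12 endothelial, 2 of 6 podocyte, 6 of 8 loop and distal tubule and 1 of 9 collecting duct markers, so RNA of other kidney cells was present as well. On at least 3 arrays 12, 6, 8 and 4 of these other-cell markers were above 4, while Aqp2 of the collecting duct was at the floor on every array. The labels give no sex. Xist, a transcript of female cells, was at 11.91 (wild type 2), at 6.72 (wild type 3) and at 2.67 or less on the remaining arrays, and the Y-linked Eif2s3y was at 2.30 on wild type 2 and at 7.88 or more elsewhere. Samples were grouped by their labels as given, and whether any were exchanged was not tested.

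The transporters were lowest together on 5 arrays, namely wild type 1, the 3 dB/dB arrays and dB/dB catalase-Tg 1. For 6 of the 8 genes tested (Slc6a19, Slc3a1, Slc1a1, Slc7a7, Slc7a8 and Slc3a2) every value on these 5 arrays lay below every value on the other 7. For Slc3a1 the gap was narrow, 11.08 against 11.11. The 5 arrays were picked with these values in view, so the separation restates that choice. How many of all probe sets separate in this way was not counted, and the split is a description only. Wild type 1 held the lowest value of all 8 genes, and wild type 2 the highest value of 4. By group means dB/dB was lowest for 8 of 8 genes and catalase-Tg highest for 7 of 8, an order with both ends in place for 7 genes and for 27.2% of all probe sets tested. Both wild type and the group with the 2 factors held 1 low array beside 2 high ones, and no gene passed in any group comparison.

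**Figure D1:**
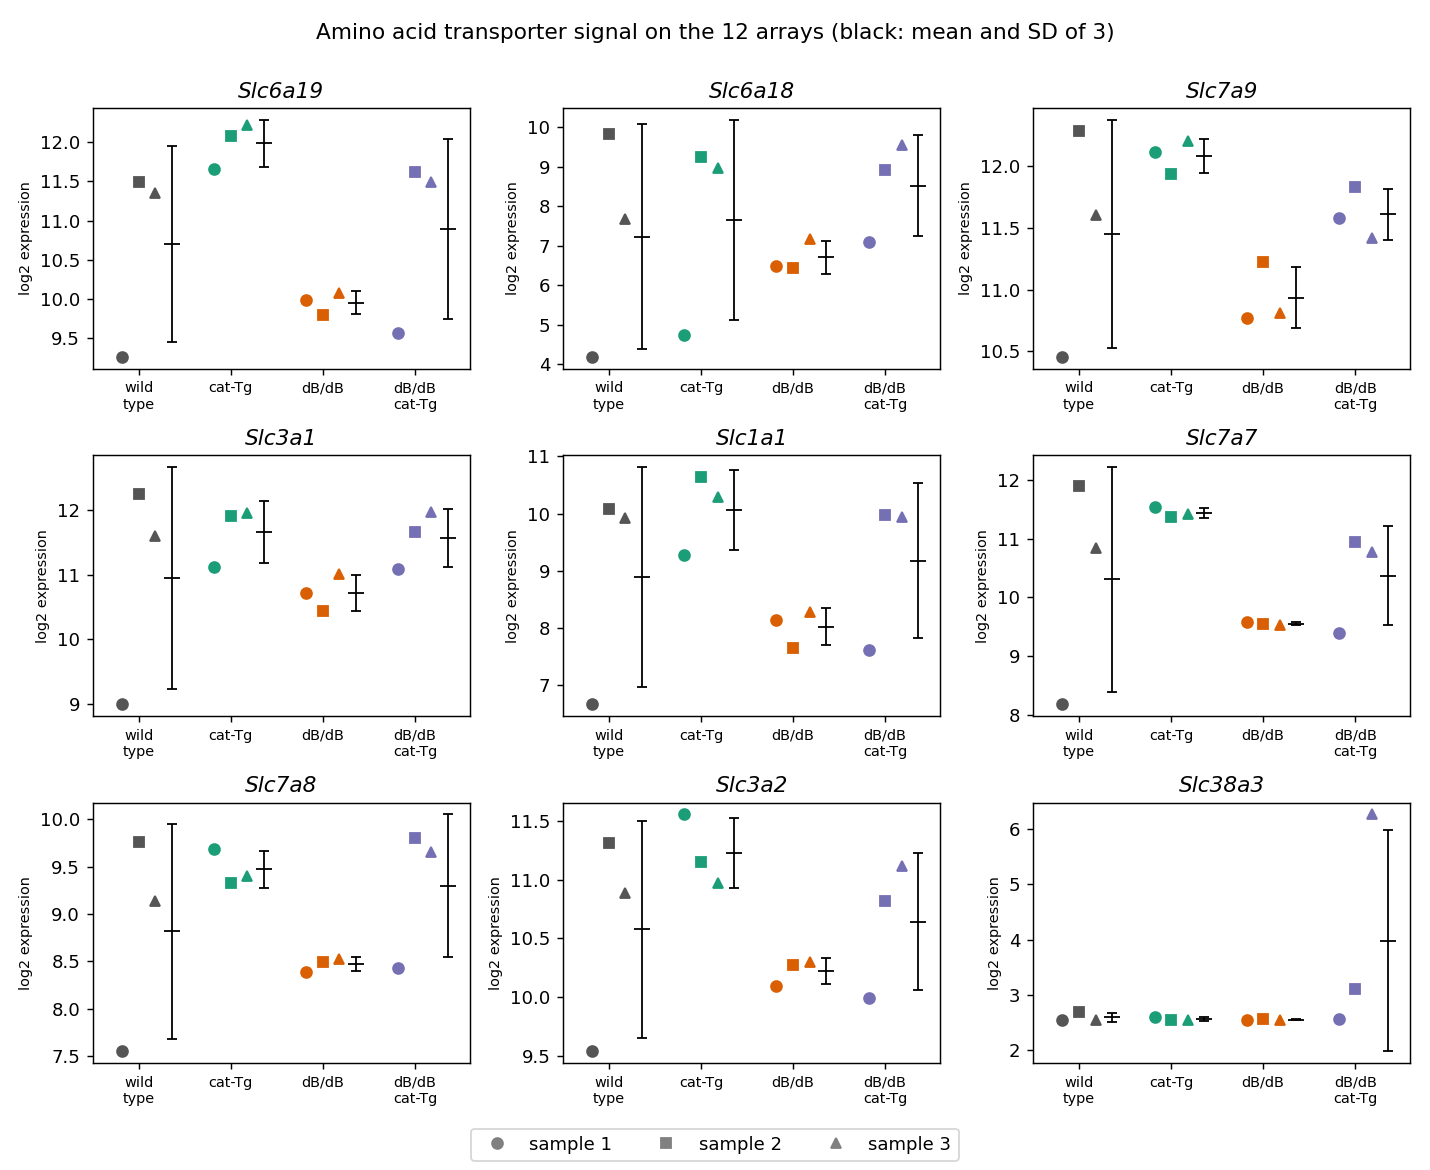
Log2 expression (vertical axes, scaled for each gene) of the 9 transporters by group (horizontal axes), with a point for each array, its symbol giving the sample number, and a black mark for the mean and SD of 3 arrays. Wild type 1 and dB/dB catalase-Tg 1 lie with the dB/dB arrays for most genes, Slc6a18 is low on catalase-Tg 1 as well, and Slc38a3 leaves the background on dB/dB catalase-Tg 3, where it read 6.26.

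Slc6a19 encodes B0AT1, the main sodium-dependent carrier of neutral amino acids in the brush border. In wild type it read 9.26, 11.49 and 11.35, given here and throughout in the order of samples 1 to 3, and it read 11.65, 12.08 and 12.22 on the catalase-Tg arrays. In dB/dB the values were 9.99, 9.79 and 10.07, and in dB/dB catalase-Tg they were 9.56, 11.62 and 11.49. All 3 catalase-Tg arrays thus lay above every other array of the series, and the dB/dB arrays lay inside the wild type range. The group means were 11.99 ± 0.30 (SD, n = 3) in catalase-Tg, 10.89 ± 1.15 in dB/dB catalase-Tg, 10.70 ± 1.25 in wild type and 9.95 ± 0.14 in dB/dB. In this order only the step from catalase-Tg to dB/dB catalase-Tg separated neighbouring groups without overlap, and neither that difference of -1.09 (SE 0.63, limma adjusted p = 0.768) nor the difference of 1.29 between catalase-Tg and wild type (SE 0.63, limma adjusted p = 0.574) passed. A second Slc6a19 probe set gave -0.87 (SE 0.49) and 0.77 (SE 0.49) for the same comparisons.

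Slc6a18 encodes B0AT3, a brush border carrier of glycine and alanine, and its gene lies directly beside Slc6a19 on chromosome 13 in the RefSeq annotation of GRCm38.p6. It was the most variable of the tested genes. The wild type arrays read 4.18, 9.83 and 7.67, and the catalase-Tg arrays 4.74, 9.26 and 8.96. The dB/dB arrays were closer together at 6.48, 6.45 and 7.18, and the dB/dB catalase-Tg arrays read 7.10, 8.92 and 9.55. The values of all 4 groups overlapped. The transgene difference within dB/dB mice was 1.82 (SE 1.45, limma adjusted p = 0.67), with a 95% interval of -1.40 to 5.04.

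Slc6a18 was also the gene that left the common pattern on catalase-Tg 1, where it was low and Slc6a19 was not. Markers of the last proximal tubule segment, S3, were low on that array too, with a list score of -1.72 (the mean difference of its genes from their 12-array means) against 1.98 and 1.99 on catalase-Tg 2 and 3. Of the 5 S3 markers tested, Slc5a10 (3.85, against a 12-array mean of 9.06), Atp11a (7.75 against 9.66) and Slc7a13 were below their means there, and Slc22a30 (9.91 against 9.14) and Slc16a9 (9.26 against 8.75) above them. Slc7a13 is the light chain AGT1, which carries aspartate, glutamate and cystine in S3. It read 2.87 on catalase-Tg 1 and 12.36 and 12.55 on catalase-Tg 2 and 3. Kap, an androgen-responsive tubule transcript, read 8.46 on catalase-Tg 1 and 15.26 and 15.22 on the others. The 3 transcripts did not run together throughout, since wild type 2 had the highest Slc6a18 of the series, with Slc7a13 at 4.83 and Kap at 11.70. Whether tubule segments or sex hormones take part in these values was not tested.

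B0AT1 reaches the brush border with an accessory protein, in the kidney chiefly collectrin (Cltrn), and is found there in complex with aminopeptidase N (Anpep). Cltrn signal was close to the top of the scale and varied little, from 13.84 on wild type 1 to 14.53 on catalase-Tg 1. Its group differences ran from -0.18 (SE 0.19) for the mutation among transgenic mice to 0.27 (SE 0.19) for catalase-Tg against wild type, and signals this bright may be compressed. Anpep read 4.84, 7.63 and 7.54 in wild type and 7.92, 7.94 and 7.48 in catalase-Tg. It read 6.55, 6.85 and 6.46 in dB/dB and 7.17, 7.86 and 8.12 in dB/dB catalase-Tg, so that these last groups did not overlap. Their difference of 1.09 (SE 0.62, limma adjusted p = 0.636) did not pass.

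Slc7a9, the light chain b0,+AT, and Slc3a1, its heavy chain rBAT, form the brush border exchanger that takes up cystine and the basic amino acids. Slc7a9 read 10.45, 12.29 and 11.61 in wild type and 12.12, 11.94 and 12.20 in catalase-Tg. In dB/dB it read 10.77, 11.22 and 10.81, and in dB/dB catalase-Tg 11.58, 11.83 and 11.42. It was the gene for which dB/dB catalase-Tg 1 did not join the low arrays, so all 3 dB/dB catalase-Tg arrays lay above all 3 dB/dB arrays and below all 3 catalase-Tg arrays. The difference from dB/dB was 0.68 (SE 0.38, limma adjusted p = 0.636) and that from catalase-Tg -0.47 (SE 0.38, limma adjusted p = 0.806), and neither passed.

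Slc3a1 read 9.0, 12.24 and 11.59 in wild type, 11.11, 11.90 and 11.95 in catalase-Tg, 10.71, 10.44 and 11.003 in dB/dB and 11.08, 11.65 and 11.96 in dB/dB catalase-Tg. As for its light chain, the dB/dB catalase-Tg arrays all lay above the dB/dB arrays, here with a narrow gap. The difference was 0.85 (SE 0.68, limma adjusted p = 0.67). Across the wild type arrays the heavy chain spread more than the light chain, with an SD of 1.71 against 0.93.

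Promoter sequences were looked at because most of the transporters moved together from array to array. They came from a table of RefSeq promoters on GRCm38.p6, in which 7 of the 9 genes were matched (Slc6a18 and Slc38a3 were not), with 12 start sites between them. The 250 bases before each start were searched on both strands for CAAAGTCCA, a recognition sequence of the kidney and liver factor HNF4, and for GTTAAT, the core of the sequence bound by HNF1. Both motifs were chosen with the expression results known. CAAAGTCCA occurs in 0.384% of all 32851 promoter windows and was found 39 bases before the start of Slc3a1. GTTAAT occurs in 6.43% of windows and was found 86 bases before the most downstream of 5 Slc7a7 start sites. The other windows of these genes held neither sequence. CG dinucleotides, which are dense in promoters of widely expressed genes, numbered 3 in the window of Slc6a19, 6 in that of Slc3a1, 11 in that of Slc3a2, 14 in that of Slc7a8 and 27 in that of Slc1a1, against a median of 6 over all windows. The 100 bases before the start are shown, 5′ to 3′ on the gene's strand, for the 2 promoters with a match, at chr17:85028247-85028346 (plus strand) and chr14:54409473-54409572 (minus strand), with the match in capitals, and for Slc3a2 at chr19:8713898-8713997 (minus strand), with its 7 CG dinucleotides in capitals. A match is a description of these letters and does not show that a factor binds there.
Slc3a1: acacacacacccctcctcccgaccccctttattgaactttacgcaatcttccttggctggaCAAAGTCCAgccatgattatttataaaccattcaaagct
Slc7a7: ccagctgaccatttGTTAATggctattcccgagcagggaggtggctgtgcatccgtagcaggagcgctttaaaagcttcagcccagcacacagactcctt
Slc3a2: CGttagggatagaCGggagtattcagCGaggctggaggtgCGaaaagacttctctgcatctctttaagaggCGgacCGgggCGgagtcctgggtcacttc

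Slc1a1 encodes EAAC1 (EAAT3), the brush border carrier of glutamate and aspartate. It read 6.67, 10.07 and 9.92 in wild type, 9.27, 10.63 and 10.28 in catalase-Tg, 8.14, 7.66 and 8.27 in dB/dB and 7.62, 9.98 and 9.93 in dB/dB catalase-Tg. The low and the high arrays were far apart, the highest of the 5 low arrays at 8.27 and the lowest of the other 7 at 9.27. Within dB/dB mice the transgene difference was 1.15 (SE 0.90, limma adjusted p = 0.663). The other 2 Slc1a1 probe sets gave 0.98 (SE 0.79) and 1.5 (SE 1.11), the same direction.

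On the basolateral side, Slc7a7 encodes the light chain y+LAT1, which exports basic amino acids in exchange for neutral ones and sodium. It read 8.19, 11.89 and 10.84 in wild type and 11.53, 11.36 and 11.42 in catalase-Tg. In dB/dB it read 9.58, 9.55 and 9.53, an SD of 0.02, and in dB/dB catalase-Tg 9.40, 10.94 and 10.77. The 3 catalase-Tg arrays lay above all 6 arrays with the dB/dB mutation. The difference between dB/dB catalase-Tg and catalase-Tg was -1.07 (SE 0.76, limma adjusted p = 0.793), and a second probe set gave -1.51 (SE 1.03). The SD was 1.91 in wild type and 0.02 in dB/dB, where the test assumes 1 spread for all groups.

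Slc7a8 encodes LAT2, a light chain that exchanges neutral amino acids across the basolateral membrane. It read 7.55, 9.76 and 9.14 in wild type, 9.69, 9.32 and 9.40 in catalase-Tg, 8.39, 8.49 and 8.53 in dB/dB and 8.43, 9.80 and 9.66 in dB/dB catalase-Tg. In the dB/dB catalase-Tg group sample 1 lay with the dB/dB arrays and the other 2 above them. The difference from dB/dB was 0.83 (SE 0.51, limma adjusted p = 0.638).

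Slc3a2 encodes 4F2hc (CD98), the heavy chain of both Slc7a7 and Slc7a8, and is expressed in many cell types. It read 9.54, 11.31 and 10.88 in wild type, 11.55, 11.15 and 10.97 in catalase-Tg, 10.10, 10.27 and 10.30 in dB/dB and 9.99, 10.82 and 11.11 in dB/dB catalase-Tg. Its values spanned 9.54 to 11.55, with the same 5 arrays lowest. The difference between dB/dB and wild type was -0.36 (SE 0.43, limma adjusted p = 0.792) and the transgene difference within dB/dB mice 0.42 (SE 0.43, limma adjusted p = 0.731).

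Slc38a3 encodes SNAT3, a basolateral glutamine carrier that supplies ammonia production. Its brighter probe set stayed near background, between 2.55 and 2.69 on the wild type, catalase-Tg and dB/dB arrays, and at 2.57, 3.11 and 6.26 on dB/dB catalase-Tg 1, 2 and 3. Its second probe set was at the floor on all 12 arrays. The gene was above 4 on 1 array only and was not tested, and these probe sets do not show whether it was expressed elsewhere.

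The first comparison, dB/dB against wild type, asks what the leptin receptor mutation does to the transporters. All 8 differences were below 0, from -0.86 (Slc1a1, SE 0.90) to -0.22 (Slc3a1, SE 0.68), with a median of -0.52 beside -0.11 over all probe sets tested. None passed (limma adjusted p = 0.767 to 0.91, and 0 of 8 at an unadjusted p under 0.05), and 0% of the 18144 probe sets passed, with 4.16% at an unadjusted p under 0.05. The groups overlapped for all 8 genes, where 8.91% of all probe sets had dB/dB wholly below wild type. The direction depended on the wild type arrays used. Without wild type 2 alone the median was 0.03, with 5 of 8 above 0. Without wild type 1 alone it was -1.33, with 0 of 8 above 0, and 0 of 8 passed beside 0.59% of all probe sets. With sample 1 as the only wild type array all 8 were above 0, with a median of 1.14, that lone array being assumed to vary like the other groups. Wild type 1 held the lowest value of all 8 genes, which fixed this last direction in advance. With sample 1 left out of wild type and of both transgenic groups, the 3 arrays with the lowest limma array weights, all 8 fell and passed (Slc6a19 by 1.47, adjusted p = 0.00167, Slc1a1 by 1.97, adjusted p = 0.002). Of all probe sets 26.9% passed in either direction. Wild type is then represented by the 2 arrays that carry Xist. The weights come from these same data, so leaving out these arrays shrinks the spread by construction. The SE of Slc6a19 went from 0.63 to 0.14, and these adjusted p-values are too small to be taken as they stand.

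Catalase-Tg against wild type asks what the transgene does in mice without the mutation. All 8 differences were above 0, from 0.43 (Slc6a18, SE 1.45) to 1.29 (Slc6a19, SE 0.63), with a median of 0.68 beside -0.02 over all probe sets. None passed, with 0.022% of all probe sets called. Here, in the next 2 comparisons, in the interaction and in the average dB/dB effect, 0 of 8 genes had an unadjusted p under 0.05. The shares of all probe sets were 9.15%, 7.50%, 6.86%, 1.64% and 12.2% in that order. Slc6a19 was the 1 gene of 8 whose catalase-Tg values all lay above wild type, as did 5.74% of all probe sets. With those 3 arrays numbered 1 left out the differences ran from -0.09 for Slc7a8 (SE 0.21) to 0.73 for Slc6a19 (SE 0.16, adjusted p = 0.158). Against wild type 1 alone, all 8 differences were above 0, with a median of 2.69. That array held the lowest value of all 8 genes, which fixed this direction in advance, and a single array has no spread of its own.

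The transgene was next compared within dB/dB mice, where all 8 differences of dB/dB catalase-Tg from dB/dB were again above 0, from 0.42 (Slc3a2, SE 0.43) to 1.82 (Slc6a18, SE 1.45), with a median of 0.84 beside -0.02 over all probe sets. None passed (limma adjusted p = 0.636 to 0.731), with 0.00551% of all probe sets called. Slc7a9 and Slc3a1, the cystine carrier pair, were the 2 genes of 8 whose groups did not overlap, where 4.87% of all probe sets lay wholly above dB/dB. With arrays weighted by their closeness to their group, all 8 passed upward, by 0.73 (Slc3a2, adjusted p = 0.017) to 2.37 (Slc6a18, adjusted p = 0.0185), as did 38.5% of all probe sets in either direction. With the 3 arrays numbered 1 left out, 7 of 8 passed, Slc7a9 being the exception at 0.69 (adjusted p = 0.0779), along with 27.8% of all probe sets. Both settings give these arrays little or no weight because of their distance from their groups in these same data. The spread shrinks with that choice, so these calls are no independent support. With dB/dB catalase-Tg 1 as the only array left out none of the 8 passed.

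Among transgenic mice, dB/dB catalase-Tg against catalase-Tg gave 7 of 8 differences below 0, from -1.09 for Slc6a19 (SE 0.63) to 0.87 for Slc6a18 (SE 1.45), with a median of -0.53 beside -0.10 over all probe sets. None passed, with 0.0276% of all probe sets called. Slc6a19, Slc7a9 and Slc7a7 did not overlap, 3 of 8 genes, where 9.35% of all probe sets lay wholly below catalase-Tg. The interaction of the 2 factors had a median of 0.01 over the 8 genes, none passed (adjusted p = 1), and 0.00551% of all probe sets were called, so a transgene difference that depends on the mutation was not detected. The median moved to 0.77, with 8 of 8 above 0, without wild type 1 and to -0.55, with 1 of 8 above 0, without wild type 2. With dB/dB catalase-Tg 1 left out it was 0.34, with 8 of 8 above 0. The interval for Slc6a19 ran from -2.34 to 1.64. A test for any difference among the 4 groups called 0 of 8 genes (lowest adjusted p = 0.406, for Slc6a19) and 0.0386% of all probe sets.

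**Figure D2:**
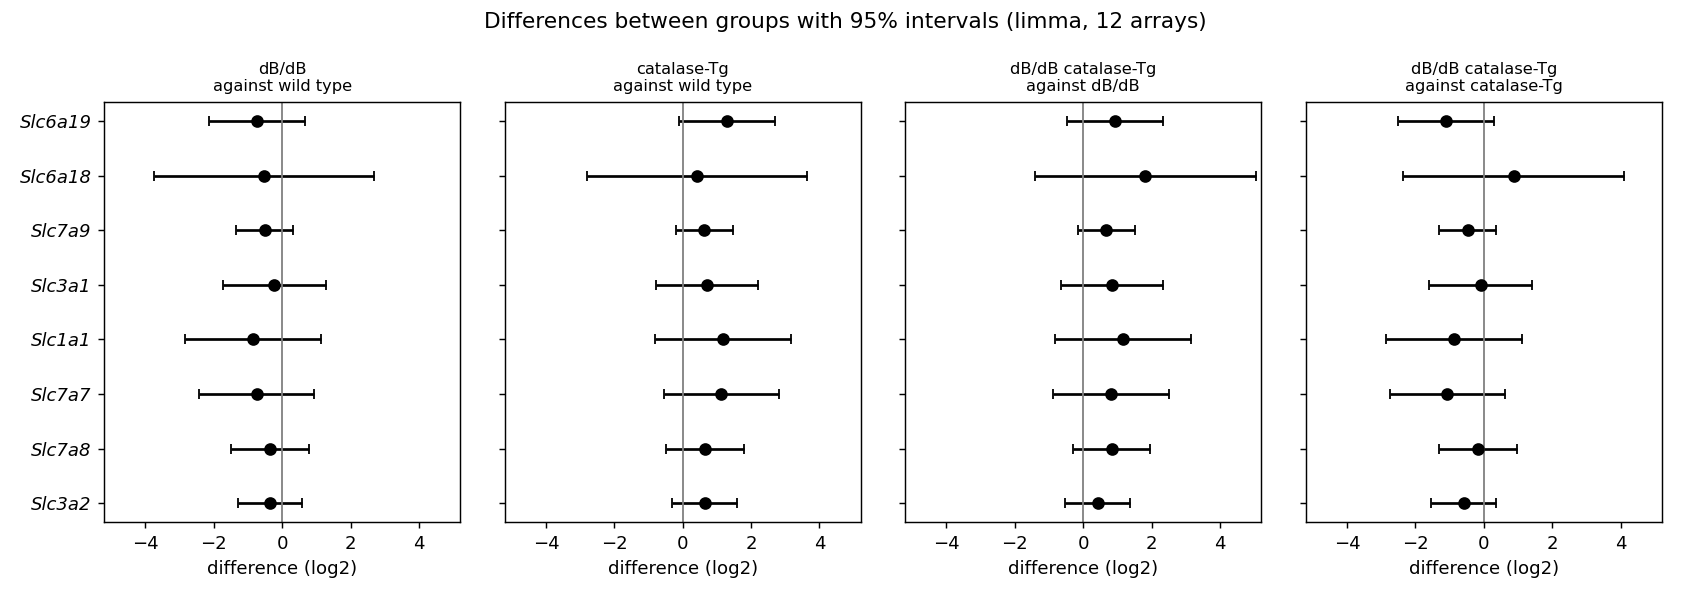
Differences in log2 expression between groups (horizontal axes) for the 8 tested transporters (vertical axis), with points for the limma estimates from 12 arrays and bars for 95% intervals. All 32 intervals include 0, with the estimates below 0 for dB/dB against wild type and above 0 for both transgene comparisons.

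Averaged over both transgene states, 6 arrays against 6, the dB/dB effect was -0.92 for Slc6a19 (SE 0.45, limma adjusted p = 0.423), -0.91 for Slc7a7 (SE 0.54) and -0.87 for Slc1a1 (SE 0.63), and 0.17 for Slc6a18 (SE 1.03). None passed, with 0.0165% of all probe sets called. Without wild type 1 alone, Slc7a7 fell by 1.44 (adjusted p = 0.0238) and Slc7a9 by 0.74 (adjusted p = 0.0322), along with 6.87% of all probe sets. That array held the lowest value of all 8 genes, so leaving it out enlarges a fall and shrinks the spread. The SE of Slc7a7 went from 0.54 to 0.30, and these calls are no independent support. The average transgene effect was above 0 for all 8 genes, with a median of 0.88 and the largest value for Slc1a1 at 1.16 (SE 0.63). Slc6a19 at 1.11 (SE 0.45) and Slc7a9 at 0.66 (SE 0.27) had an unadjusted p under 0.05, 2 of 8 genes beside 18.1% of all probe sets, and limma adjusted p-values of 0.241 and 0.243, with 0.0276% of all probe sets called.

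Endothelial, fibroblast and mural, and loop and distal tubule markers ran against the transporters from array to array. Podocyte, collecting duct and leukocyte markers did so less regularly. On the 5 arrays where the transporters were lowest, the endothelial score lay between 0.92 and 1.78, and on the other 7 it was at most 0.10. The fibroblast and mural score lay between 0.60 and 1.63 on those 5 and was at most 0.04 on the other 7. For loop and distal tubule markers it lay between 1.07 and 1.72, against at most 0.43. The endothelial range was -1.43 to 1.44 in wild type, -1.92 to 0.10 in catalase-Tg, 0.92 to 1.78 in dB/dB and -1.20 to 1.59 in dB/dB catalase-Tg. Loop and distal tubule markers separated more of the groups, with scores of -2.47 to -1.56 in catalase-Tg, 0.24 to 1.07 in dB/dB catalase-Tg, 1.14 to 1.56 in dB/dB and -1.85 to 1.72 in wild type. For dB/dB catalase-Tg against catalase-Tg, where Slc6a19, Slc7a9 and Slc7a7 did not overlap, all 8 loop and distal tubule markers were above 0 with a median of 2.45, 7 at an unadjusted p under 0.05 and 0 after adjustment. Their part in the transporter differences was not tested. The podocyte score was 2.43 on wild type 1 and 1.79 on wild type 3 but -1.95 on wild type 2. The proximal tubule markers, a list without any of the 9 transporters, ran in the transporters' direction, from -1.73 on wild type 1 to 0.62 on wild type 2, and the transporters' own score from -1.93 to 1.07 on the same arrays. In such preparations fewer proximal tubule cells and less transporter RNA per cell cannot be told apart. With the score of podocyte, endothelial and mural markers as a covariate, dB/dB against wild type gave 6 of 8 differences above 0 and a median of 0.07, and the transgene within dB/dB mice a median of -0.17.

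**Figure D3:**
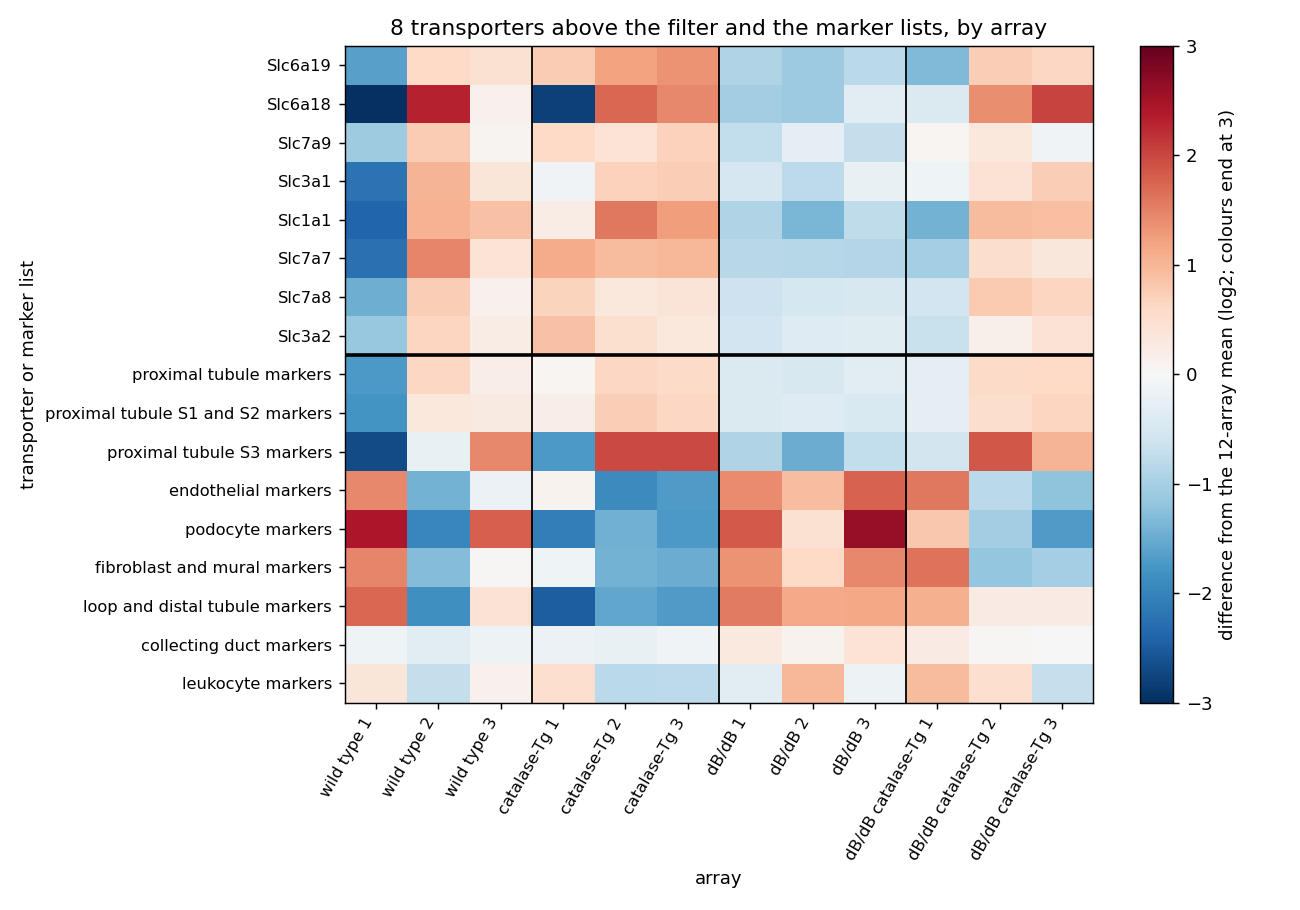
Difference from the 12-array mean (colour, log2, ending at 3) of the 8 tested transporters and of the mean of each marker list (rows) on each array (columns, with lines between groups). Wild type 1, the dB/dB arrays and dB/dB catalase-Tg 1 are blue for transporters and proximal tubule markers and red for endothelial markers, and the S3 row and Slc6a18 are blue on catalase-Tg 1.

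To see which transporters departed from the rest of the tubule, the proximal tubule score of each array was subtracted from each gene's own deviation. Slc3a1 then stayed within -0.49 to 0.40 on all arrays, so it followed the tubule markers closely. Slc6a18 departed most, from -2.84 to 1.68, and Slc1a1 ran from -1.13 to 0.98 and Slc7a7 from -0.73 to 1.06, with dB/dB and wild type overlapping for all 3. For Slc6a19 the relative value was 0.72, 0.59 and 0.77 on the catalase-Tg arrays, 0.10, -0.01 and 0.27 in wild type, -0.47, -0.62 and -0.50 in dB/dB and -1.04, 0.17 and 0.02 in dB/dB catalase-Tg. With this probe set the dB/dB arrays lay below every wild type array by this measure, wild type 1 included, and the catalase-Tg arrays above every other array. The second Slc6a19 probe set read 10.948 on wild type 3 and 11.115 on catalase-Tg 2, where the tubule scores were 0.20 and 0.61. Its catalase-Tg arrays thus overlapped wild type by this measure, while its dB/dB arrays stayed below wild type. No other tested transporter had dB/dB wholly below wild type by this measure. How many of all probe sets separate in this way was not counted, so the order is a description only. With the proximal tubule score as a covariate in the fit, the average dB/dB effect was -0.79 for Slc6a19 (SE 0.19, adjusted p = 0.0511), -0.75 for Slc7a7 (SE 0.18, adjusted p = 0.0548) and -0.69 for Slc1a1 (SE 0.20, adjusted p = 0.0866), and -0.02 for Slc3a1 (SE 0.13, adjusted p = 0.956). None of the 8 passed, while 3.52% of all probe sets did. This fit was added after the data had been seen. In it the average transgene effect had a median of 0.00 over the 8 genes and was 0.30 for Slc6a19 (SE 0.22).

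**Figure D4:**
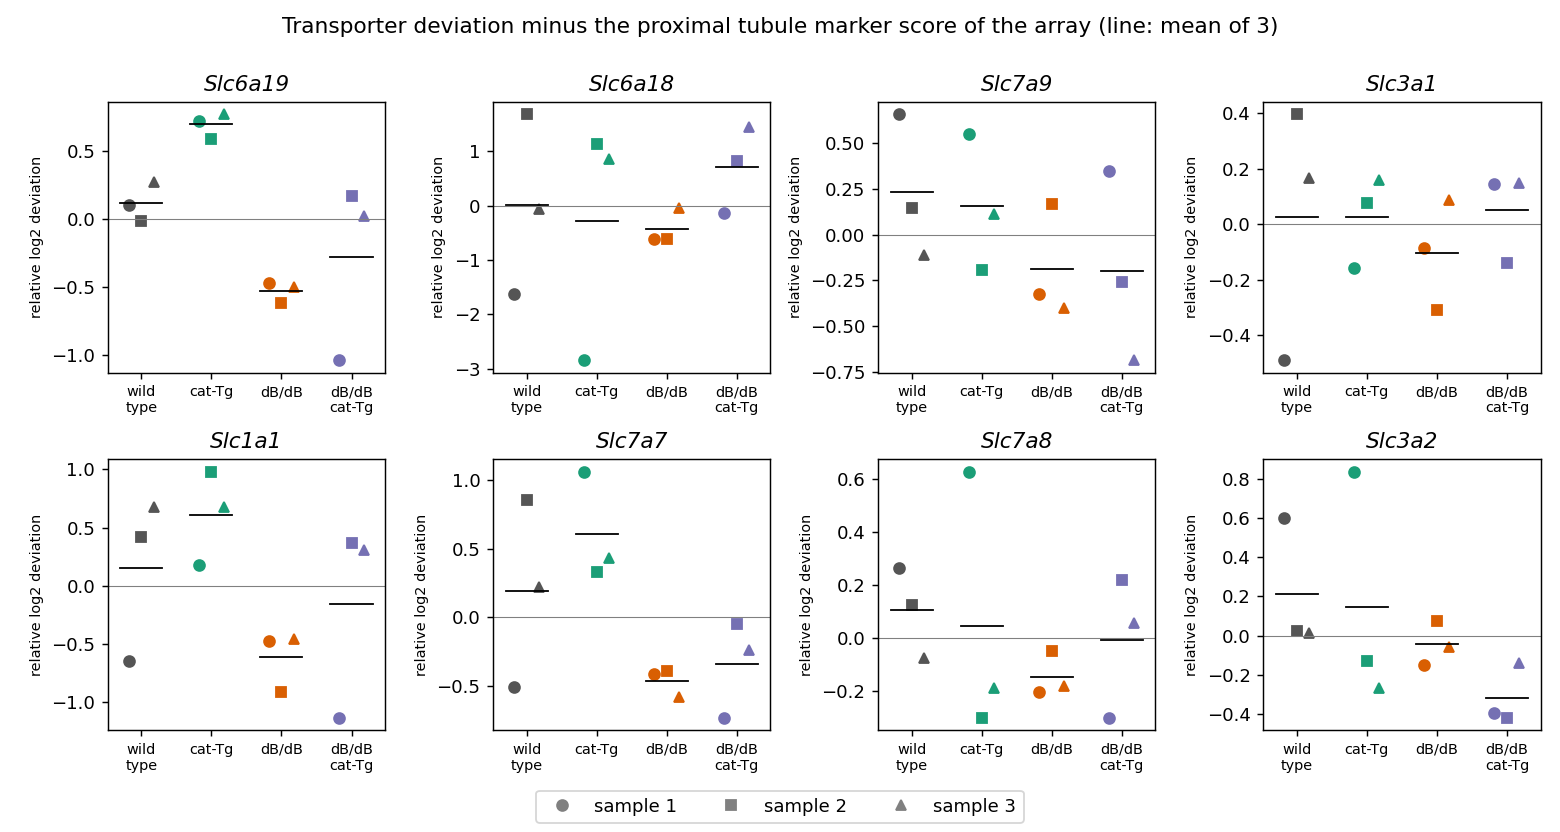
Deviation of each transporter from its 12-array mean minus the proximal tubule marker score of the array (vertical axes, log2) by group, with a point for each array and a line for the mean of 3. Slc6a19 lies from 0.59 to 0.77 in catalase-Tg and from -0.62 to -0.47 in dB/dB, while Slc3a1 stays near 0.

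Of 43 other amino acid and peptide transporters, 23 passed the filter. No member passed in any of the 7 comparisons. At an unadjusted p under 0.05 were 7 of the 23 for the average dB/dB effect, beside 12.2% of all probe sets, 10 for the average transgene effect, beside 18.1%, and 1 to 5 in the others. In dB/dB against wild type 17 of the 23 were below 0 and 6 above (median -0.33), beside 38.0% of all probe sets above 0. For the transgene within dB/dB mice 17 were above 0 (median 0.23), beside 48.3% of all probe sets. The direction differed between genes. Slc6a20b was low and high on much the same arrays as most of the tested transporters, from 6.65 on wild type 1 to 10.73 on catalase-Tg 3. Slc1a5, the neutral amino acid exchanger ASCT2, ran against them. It was highest on wild type 1 at 8.77 and read 7.96, 7.25 and 7.12 in dB/dB and 4.44, 4.59 and 4.36 in catalase-Tg. Slc38a2, the widely expressed system A carrier SNAT2, read 9.86, 7.97 and 9.09 in wild type and 9.56, 9.48 and 9.61 in dB/dB.

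The members of this list with the smallest p were Slc38a6 and Slc6a15. Slc38a6, of the SNAT family, read 7.17, 7.25 and 7.36 in catalase-Tg and 5.72 to 6.41 on the other 9 arrays. It differed by 1.06 from wild type (SE 0.21, limma adjusted p = 0.309), by -1.12 when the mutation was added to the transgene (SE 0.21, limma adjusted p = 0.331) and by 0.04 when the transgene was added to the mutation (SE 0.21). The interaction of -1.02 (SE 0.30) had an unadjusted p of 0.00588 and an adjusted p = 1. Slc6a15, the branched-chain amino acid and proline carrier B0AT2, read 4.50, 4.16 and 4.06 in dB/dB and 8.35, 8.08 and 8.10 in catalase-Tg. In wild type it read 4.41, 7.42 and 7.67 and in dB/dB catalase-Tg 4.41, 6.54 and 6.07, with the same 5 arrays low. Its average dB/dB effect was -2.38 (SE 0.55, limma adjusted p = 0.372).

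**Figure D5:**
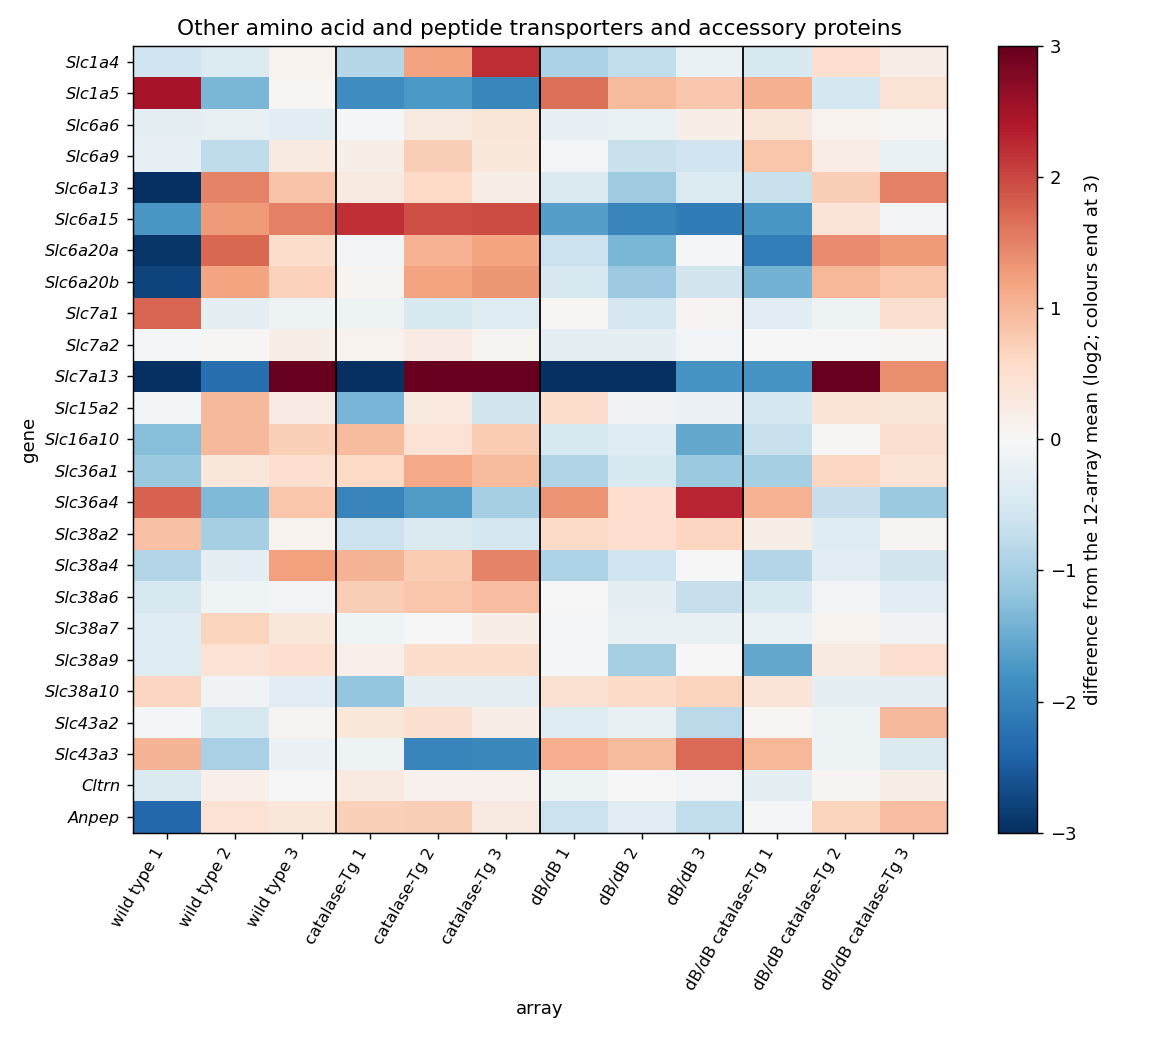
Difference from the 12-array mean (colour, log2, ending at 3) of 23 other amino acid and peptide transporters and of Cltrn and Anpep (rows) on each array (columns, with lines between groups). Slc6a20b and Slc6a15 are blue on wild type 1, the dB/dB arrays and dB/dB catalase-Tg 1, Slc1a5 is red there, and Slc38a6 is red on the 3 catalase-Tg arrays.

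Slc3a2 is a known target of the amino acid response, the programme by which ATF4 raises transporters and synthetic enzymes when amino acids are short. Of 23 genes of that response 18 were tested and 0 passed in any comparison, with 0 to 3 at an unadjusted p under 0.05. Their median was -0.06 in dB/dB against wild type and 0.08 for the transgene within dB/dB mice, next to the -0.11 and -0.02 of all probe sets. Eif4ebp1, an inhibitor of translation, had the smallest p among them in both, at 0.72 (SE 0.32) and -0.72 (SE 0.32). Of 12 genes of ammonia production and the acid-base transport that goes with it, other than Slc38a3, all were tested and 0 passed. In the single comparisons 0 had an unadjusted p under 0.05. For the transgene within dB/dB mice 12 of 12 were above 0, with a median of 0.57, beside 48.3% of all probe sets above 0. The proximal tubule markers, which share Pck1 with this list, were 14 of 14 above 0 there, with a median of 0.66.

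The genes with the profile most like the mean of the 8 transporters, among 9736 genes compared over 12 arrays, were Haao (Pearson r = 0.992), Nat8f1 (0.991), Kmo (0.990), Lrp2 (0.989) and Dgat2 (0.988). Haao and Kmo are enzymes of tryptophan breakdown, Lrp2 is the endocytic receptor megalin and Dgat2 an enzyme of triglyceride synthesis. Closest to Slc3a2 were Cotl1 (0.989), an actin-binding protein, Elovl5 (0.983), a fatty acid elongase, and Gcsh (0.972), the H protein of glycine cleavage. Among the transporters themselves, each gene's r with the mean of the other 7 ran from 0.722 for Slc6a18 to 0.965 for Slc1a1. All these values are descriptions that share the same arrays and the same split into low and high arrays.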

How the data were processed

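Total RNA of 12 samples was measured on Affymetrix mouse arrays. The authors deposited log2 expression per probe set. The submitters' processing notes name GCRMA and limma, whose versions are not given in the sources used here. GCRMA corrects background, which sets a floor, and normalizes between arrays. No further normalization was applied. After removal of 64 controls from 45101 probe sets, the 18144 above 4 (log2) on at least 3 of 12 arrays entered a limma fit (version 3.58.1, R 4.3.3) of a mean for each group, with all 12 arrays together and Benjamini-Hochberg adjustment over all probe sets at 0.05. The fit was tried on simulated data with noise drawn separately for each probe set and array. Shifts shared by many genes of an array, as seen for the transporters, were not simulated. Symbols come from GEO's annotation of the array, and 34945 of 45037 probe sets had 1 symbol. A list's score is the mean difference of its genes from their 12-array means.

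Named are the 9 members, Cltrn and Anpep, up to 4 genes per list and comparison with the smallest p, and the 5 genes most like the members' mean and the 3 most like Slc3a2. Slc6a20b, Slc1a5, Slc38a2, the S3 markers, Aqp2 and Kap fall outside this rule and were picked with their values in view. The members and lists were chosen with earlier results of these data known. Samples with the same number were not treated as pairs, since not all of their deviations from group means correlated above 0.1: 4 of 6 pairs did for number 1, 4 of 6 for number 2 and 5 of 6 for number 3, over a range of -0.18 to 0.71. The alternatives were other filters, spread estimates, normalizations and probe sets, array weights, groups fitted alone, a block for the sample number, marker scores as covariates and arrays left out. The number of arrays limits the precision.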

Additional observations from a re-analysis of the deposited data

Results flagged for a closer look

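Slc38a3, below the filter and outside the tests, read 6.26 on dB/dB catalase-Tg 3 and at most 3.11 on the other 11 arrays, a signal on a single array of the group with both factors. The difference was not tested.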

How the results depend on the processing

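In the comparisons of the report 0 of 8 transporters passed. With array weights the number, with the share of all probe sets called, was 8 for any difference among the 4 groups (42.8%), 8 for the transgene within dB/dB mice (38.5%), 3 for the average dB/dB effect (10.9%) and 5 for the average transgene effect (26.4%). With sample 1 of wild type and of both transgenic groups left out it was 8 for any difference (31.7%), 8 for dB/dB against wild type (26.9%), 7 for the transgene within dB/dB mice (27.8%), 6 for the average dB/dB effect (19.4%) and 4 for the average transgene effect (20.5%). Both settings play down arrays that these same data place far from their groups. That shrinks the spread, so these counts are no independent support. Without wild type 2 and wild type 3, wild type was a single array with no spread of its own, so calls are not given. The median was then 2.69 for catalase-Tg against wild type and 1.79 for the average transgene effect. Leaving out 1 array gave 0 to 2 transporters passing for the average dB/dB effect, the 2 without wild type 1, and 0 for the other comparisons. Wild type 1 held the lowest value of all 8 genes, so these 2 calls are no independent support either. The samples share only a number, as in the check of pairing, where 6 of 12 arrays correlated best with an array of their own number. The replicate block, with that number as a block, gave 0 in every comparison, as did both filters, the other normalizations and spread estimate, 1 probe set per gene, both marker covariates and, for the single comparisons to which it applies, the groups fitted alone. Single differences were counted for each combination of gene, comparison and setting. They kept their direction and side of the threshold in 1223 combinations, passed only in the alternative in 57, and turned direction without a call in 124. Turns came most often with a marker covariate or without wild type 2 and wild type 3. The cause of these changes was not tested. With 3 arrays a group and SDs of up to 2.85 (Slc6a18, wild type) intervals were wide, and Slc38a3 and 20 other transporters were too near background to compare.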

Other observations

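On dB/dB catalase-Tg 3, the array with Slc38a3 signal, 7 of the 12 tested genes of ammonia production and acid-base transport had their highest value of the series, where 6.08% of all tested probe sets had theirs on that array. Pck1, the gluconeogenic enzyme PEPCK that also takes up the carbon left by glutamine, read 14.63 there and 13.83 or less elsewhere. Glud1, glutamate dehydrogenase, read 12.65 there and 12.15 or less elsewhere, and Gpt, alanine aminotransferase, 8.46 and 7.77 or less. Asns, asparagine synthetase, read 5.24 on that array and 3.63 or less on the others. The array and these genes were picked after their values had been seen, and no test was made on 1 array.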
